A study of Rattus norvegicus with 17 samples.

Results

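The levels of 6 genes known for their expression in the choroid plexus were followed by RNA sequencing in dissected rat hippocampus. They were Ttr (ENSRNOG00000016275), Kl (ENSRNOG00000001092), Aqp1 (ENSRNOG00000011648), Igf2 (ENSRNOG00000020369), Igfbp2 (ENSRNOG00000016957) and Enpp2 (ENSRNOG00000004089). All 6 identifiers were found among the 26402 genes listed. The choroid plexus is a vascular tissue that hangs in the ventricles of the brain, and its epithelium secretes most of the cerebrospinal fluid together with carrier proteins and growth factors. In the lateral ventricle it lies close to the hippocampus. Some of the 6 genes are also known from other cells of the brain, Enpp2 from oligodendrocytes and Igf2 and Igfbp2 from the meninges.

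The tissue was the left CA1/CA2 region, without the dentate gyrus and the alveus, of male rats of the inbred Fischer-344 strain (Fisher-344 in the sample labels) aged 12 months. ENZ rats were injected under the skin on 3 days with enzastaurin, an inhibitor of protein kinase C-β, at 25 mg/kg in 0.4 mL of polyethylene glycol, and vehicle rats with undiluted polyethylene glycol. All rats swam the Morris maze on these days and were killed after the last trial. The labels name 10 vehicle and 7 ENZ rats, each with 1 library, and a further rat that the study randomized to ENZ was not analysed here. The study removed outlying samples before its own test and gives 7 rats per group, so its set differs from the sets used here. It does not name the samples removed. Rats are called by their labels, G1 for vehicle and G2 for ENZ before the number of the rat.

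Levels are given as normalized counts, the reads on a gene divided by 1 size factor for the rat. Reads on genes ran from 2716777 to 20731523 in 16 rats, with 8710997 reads in the median rat of the 9 vehicle and 5182015 in that of the 7 ENZ rats. Vehicle rat G1_80 had 33422 reads, and 1 read in it was worth 103 normalized counts. It held 0 reads on all 6 genes, which allows each of them up to 381 normalized counts (upper end of a 95% Poisson interval). As a share of its reads, 0 of 33422 allows up to 0.0115% on the 6 genes (upper end of the 95% Wilson interval). The 381 normalized counts are above the median level of each of the 6 genes in the other 16 rats, so their levels in G1_80 could not be seen at this depth. The 16 other rats, 9 vehicle and 7 ENZ, are described first. Marker lists of hippocampal neurons and of other cell types were not analysed here, and in whole tissue fewer cells of a type and less RNA per cell cannot be told apart.

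Ttr encodes transthyretin, which carries thyroxine and retinol-binding protein in the cerebrospinal fluid. In the 9 vehicle rats its level ran from 3.31 normalized counts (G1_107, 3 reads) through a median of 42.5 to 95874 (G1_44, 207256 reads). In the 7 ENZ rats it ran from 2.27 (G2_26, 3 reads) through a median of 52.2 to 167 (G2_161, 147 reads). Rat G1_44 stood far above all others, and apart from it the groups overlapped over most of their range, with a highest vehicle level of 135 in G1_53. The coefficient of variation over the 15 rats without G1_44 was 90.2%. Counting error was smaller than this spread: the 95% Poisson intervals were 0.469 to 6.64 in G2_26 and 141 to 196 in G2_161. Neighbours near the top of the order could not be separated, with intervals of 121 to 151 in G1_53 and 118 to 166 in G2_125. Among the 13874 genes with a median of at least 5 normalized counts over these 15 rats, the SD of Ttr on the log2(normalized count + 1) scale was 1.85 and ranked 5, where the median gene had an SD of 0.19. Ttr thus varied between rats more than nearly all genes even when G1_44 was set aside.

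Kl encodes klotho, a membrane protein that serves as a co-receptor for fibroblast growth factor signals and is shed into the cerebrospinal fluid. Its level in vehicle rats ran from 0.727 normalized counts (G1_143, 1 read) through a median of 2.05 to 2484 (G1_44, 5369 reads). In ENZ rats it ran from 0 in G2_26 and G2_62 through a median of 3.57 to 7.96 (G2_161, 7 reads). Both rats without a Kl read were also the ENZ rats with the lowest Ttr, and their counts of 0 allow up to 2.79 and 4.89 normalized counts. Outside G1_44, no rat had more than 15 reads on Kl, so differences between single rats lay mostly within counting error.

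Aqp1 encodes the water channel of the apical membrane of the choroid plexus epithelium. Vehicle rats had between 1.10 normalized counts (G1_107, 1 read) and 841 (G1_44, 1818 reads), with a median of 4.35. ENZ rats had between 0 (G2_152) and 11.4 (G2_26, 15 reads), with a median of 6.18. The 0 of G2_152 allows up to 4.81 normalized counts, and the groups overlapped. G2_26, the rat with the lowest Ttr, thus had the highest Aqp1 after G1_44.

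Igf2 encodes an insulin-like growth factor, and Igfbp2 a protein that binds such factors and sets how much of them reaches their receptors. Igf2 in vehicle rats ran from 56.5 normalized counts (G1_18) through 78.7 at the median to 4357 (G1_44, 9418 reads). Its ENZ values ran from 67.8 (G2_116) through 83.5 to 158 (G2_26, 209 reads). Apart from G1_44 and G2_26 all rats lay within a narrow band of Igf2, the next highest being G1_134 at 104. Igfbp2 lay between 69.6 (G1_107) and 2302 (G1_44, 4977 reads) in vehicle rats, with a median of 85.0. The ENZ rats lay between 50.4 (G2_62) and 133 (G2_26, 175 reads) for Igfbp2, with a median of 80.3. Here, too, G1_44 was highest and G2_26 followed, and the groups overlapped.

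Enpp2 encodes autotaxin, the secreted enzyme that makes lysophosphatidic acid. Vehicle rats ran from 251 normalized counts (G1_143) through a median of 323 to 17281 (G1_44, 37357 reads). ENZ rats ran from 202 (G2_152) through a median of 328 to 499 (G2_62, 376 reads). G1_44 was again the highest rat, but the next was G2_62, where Ttr was among the lowest and Kl had no read. Over the 15 rats without G1_44, Igf2, Igfbp2 and Enpp2 varied much less than Ttr, with coefficients of variation of 28.9%, 26.4% and 25.8%. On the log2 scale their SDs of 0.35, 0.38 and 0.37 ranked 2853, 2340 and 2418 among the 13874 genes. Without G2_26 as well the coefficient of variation was 15.8% for Igf2, 23.9% for Igfbp2 and 24.3% for Enpp2. Of the 6 genes, 4 had a median of at least 5 normalized counts over the 16 rats, while Kl and Aqp1 did not.

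**Figure D1:**
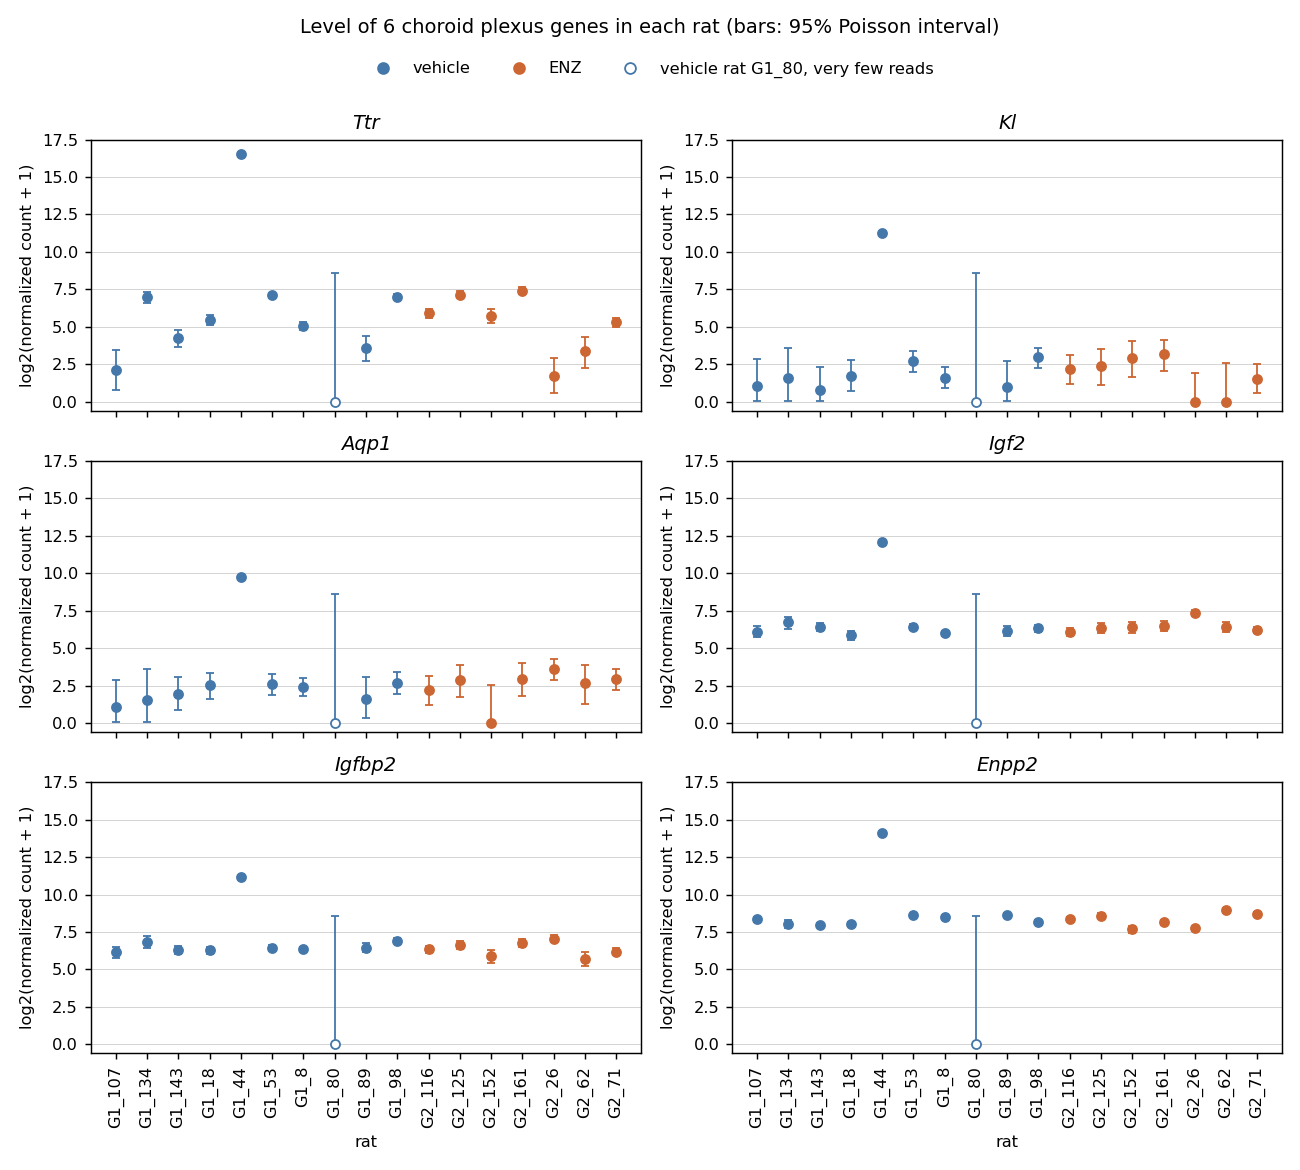
Level of each gene in each rat on the log2(normalized count + 1) scale, vehicle in blue and ENZ in orange, with 95% Poisson intervals for counting error. Rat G1_44 lies above all others in all 6 panels, and the open symbol is G1_80, where 0 reads allow up to 381 normalized counts.

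Vehicle rat G1_44 held more of all 6 genes than any other rat. Its level was 574 times that of the next highest rat for Ttr, 312 times for Kl and 74.0 times for Aqp1. For Enpp2, Igf2 and Igfbp2 the ratios were 34.6, 27.5 and 17.4. Among the 14279 genes with at least 10 reads in G1_44, ordered by this ratio after 1 gene that had no read elsewhere, Ttr ranked 2, Kl 6, Aqp1 17, Enpp2 28, Igf2 37 and Igfbp2 50. The excess was not limited to the 6 genes: besides that gene, 77 genes with at least 10 reads in G1_44 were at least 10 times above the highest of the other 15 rats, 6 of them the members, against 0 genes in each of those 15 rats when it was compared with the rest in the same way. The depth of G1_44, at 11161885 reads, was within the range of the others.

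The 6 genes together took 2.38% of the reads of G1_44 (95% Wilson interval 2.38% to 2.39%). In the other 15 rats they took from 0.00720% (G2_152) through a median of 0.0104% to 0.0137% (G1_53). The make-up of these reads differed as well. Ttr gave 77.9% of them in G1_44 but from 0.437% (G2_26) to 25.3% (G2_161) elsewhere, with a median of 9.53%, while Enpp2 gave from 41.5% to 76.9% elsewhere and a smaller share in G1_44 than in any of these rats. For every 100 reads on Ttr there were 2.59 on Kl in G1_44 and 4.88 in the median of the 15 others, which ran from 0 (G2_26) to 33.3 (G1_107). The same figures for Igf2 were 4.54 in G1_44 and a median of 160 in the others. For Aqp1 there were 0.877 in G1_44 and 7.57 in the pooled reads of the others, where G2_152 had 0 reads on Aqp1 and the next lowest rat, G1_134, had 1.59. In each of the 15 rats Igf2 had at least 53.1 reads per 100 on Ttr, Igfbp2 at least 62.8 and Enpp2 at least 169. Kl against Ttr was thus lower in G1_44 than in the pooled reads of the others, at 4.91. Of single rats only G1_134, G2_26 and G2_62 were lower, with 1, 0 and 0 reads on Kl, so counting error was large there. Aqp1 against Ttr was below all of the 15 rats but G2_152, while Igf2, Igfbp2 and Enpp2 were lower against Ttr in G1_44 than in any of them.

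Hba2, the alpha globin of red blood cells, stood less far out in this rat than the 6 genes. It was at 800 normalized counts in G1_44 and at most 434 in the other 15 rats (G1_89), a ratio of 1.84 that ranked 432. Jak3, a kinase of cytokine signalling, was at 68.0, below the highest rat at 119. The part of blood in the levels of the 6 genes was not tested.

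Leaving G1_44 aside, the highest level of each of the 6 genes was found in an ENZ rat. The share of all genes that were highest in an ENZ rat was not determined. G2_161 was highest for Ttr and Kl, G2_26 for Aqp1, Igf2 and Igfbp2, and G2_62 for Enpp2. The 95% Poisson intervals of G2_161 overlapped those of the next rats. They were 141 to 196 and 118 to 166 (G2_125) for Ttr, and 3.20 to 16.4 and 3.78 to 11.1 (G1_98) for Kl. Which group had the larger spread between rats depended on single rats. With G1_44 kept, the SD was larger in vehicle for 6 of 6 genes (share over all genes not determined), at 4.15 and 2.04 in ENZ for Ttr. Without G1_44 it was larger in the 7 ENZ than in the 8 vehicle rats for 6 of 6 genes, with SDs on the log2 scale of 2.04 and 1.82 for Ttr, 1.30 and 0.78 for Kl and 0.49 and 0.27 for Enpp2. Over all 13874 genes 65.3% had the larger SD in ENZ, and the median ratio of the SDs was 1.18, against 1.12 for Ttr and 1.97 for Aqp1. Without G2_26 as well, the SD was larger in vehicle for Ttr (1.82 and 1.45 in ENZ) and for Igf2 (0.28 and 0.14), and larger in ENZ for the 4 other genes. The difference in spread was not tested.

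Whether the 6 genes rose and fell together was examined with Pearson's r and Spearman's rho on log2(normalized count + 1) across rats, for the 15 pairs of genes, with two-sided permutation tests and no adjustment over the pairs. Over the 16 rats all 15 pairs had a positive r, from 0.780 (Ttr and Aqp1) to 0.965 (Igf2 and Igfbp2), and 12 had a permutation p under 0.05. Most of this rested on G1_44. Without it the median r of the 15 pairs fell from 0.902 to 0.0517, and 1 pair, Ttr and Kl, kept a p under 0.05.

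Kl had a positive r with Ttr in each set of rats examined. Over the 16 rats r was 0.955 and rho 0.901 (permutation p = 1e-05 for both, the smallest that 100000 permutations can give). Leaving out G1_44 gave r = 0.851 (permutation p = 5e-05) and rho = 0.879 (p = 4e-05). Leaving out G1_44 and G2_26, the 2 rats farthest from the median of Ttr, gave r = 0.805 (permutation p = 0.00042) and rho = 0.855 (p = 0.00017). Within the 9 vehicle rats r was 0.961 (exact permutation p = 0.000796, rho = 0.867, p = 0.00451), a value that includes G1_44. The 8 vehicle rats without it gave r = 0.789 (exact permutation p = 0.0216) and rho = 0.810 (p = 0.0218). Within the 7 ENZ rats r was 0.915 (exact permutation p = 0.00556, rho = 0.883, p = 0.0151). That relation rested in part on G2_26 and G2_62, the ENZ rats without a Kl read, since the 5 others gave r = 0.625 (exact permutation p = 0.283) and rho = 0.700 (p = 0.233). G2_161, G1_53 and G1_98 were high in both genes and G2_26, G2_62 and G1_107 low in both, while G1_134 was high in Ttr with 1 read on Kl. Neither gene showed a detectable relation to depth: without G1_44, r with log10 reads was 0.0983 for Ttr (permutation p = 0.726, rho = 0.075, p = 0.796) and 0.168 for Kl (permutation p = 0.550, rho = 0.175, p = 0.529).

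The other 4 genes followed Ttr through G1_44. Over the 16 rats r with Ttr was 0.780 for Aqp1 (permutation p = 0.0257), 0.802 for Igf2 (p = 0.0465), 0.849 for Igfbp2 (p = 0.0113) and 0.822 for Enpp2 (p = 0.0307). Spearman's rho, which uses only the order of the rats, was 0.341, 0.329, 0.471 and 0.162 (permutation p = 0.196, 0.211, 0.0685 and 0.547). Without G1_44, r was 0.0517, -0.19, 0.257 and 0.0134 (permutation p = 0.858, 0.522, 0.356 and 0.962), and rho 0.200, 0.186, 0.357 and -0.0179 (permutation p = 0.474, 0.510, 0.193 and 0.954). Aqp1, Igf2, Igfbp2 and Enpp2 thus showed no detectable relation to Ttr over the other 15 rats. Within the groups the values again depended on single rats. In the 9 vehicle rats r with Ttr was 0.952 for Aqp1, 0.931 for Igf2, 0.949 for Igfbp2 and 0.897 for Enpp2 (exact permutation p = 0.00346, 0.0120, 0.00151 and 0.0718). In the 8 without G1_44 it was 0.694, 0.487, 0.730 and -0.15 in the same order (exact permutation p = 0.0580, 0.223, 0.0423 and 0.708, rho = 0.738, 0.452, 0.571 and -0.0714, p = 0.0458, 0.267, 0.151 and 0.882). Without G1_107 as well the 7 other vehicle rats gave 0.436, 0.479, 0.632 and -0.15 (exact permutation p = 0.309, 0.273, 0.151 and 0.741, rho = 0.607, 0.429, 0.357 and 0, p = 0.167, 0.354, 0.444 and 1). The value of Aqp1 thus rested in part on G1_107, while Kl had r = 0.832 (exact permutation p = 0.0246, rho = 0.821, p = 0.0341). Leaving out G1_53 too, the 6 remaining vehicle rats gave r = 0.323 for Aqp1 (exact permutation p = 0.460, rho = 0.429, p = 0.419). For Igfbp2 they gave r = 0.790 (exact permutation p = 0.0917, rho = 0.486, p = 0.356), and for Kl r = 0.784 (exact permutation p = 0.0444, rho = 0.771, p = 0.103). In the 7 ENZ rats r with Ttr was -0.28 for Aqp1, -0.70 for Igf2, -0.0058 for Igfbp2 and 0.109 for Enpp2 (exact permutation p = 0.537, 0.0875, 0.990 and 0.817, rho = -0.14, -0.29, 0.214 and -0.11, p = 0.783, 0.556, 0.662 and 0.840). Without G2_26 and G2_62 the 5 other ENZ rats gave 0.412, 0.628, 0.870 and -0.0116 (exact permutation p = 0.642, 0.267, 0.075 and 1), so the negative values of Aqp1, Igf2 and Igfbp2 in ENZ rested on these 2 rats.

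ENZ rat G2_26, lowest in Ttr and highest in Igf2, Igfbp2 and Aqp1 of these 15 rats, weighed on these values. With G1_44 and G2_26 both left out, r with Ttr was 0.666 for Igfbp2 (permutation p = 0.0094, rho = 0.670, p = 0.0103), 0.408 for Igf2 (p = 0.148, rho = 0.459, p = 0.101), 0.359 for Aqp1 (p = 0.207, rho = 0.477, p = 0.0876) and -0.25 for Enpp2 (p = 0.384, rho = -0.22, p = 0.454). Igfbp2 was then the only gene besides Kl whose r with Ttr had a permutation p under 0.05 over the 14 rats, where Kl had p = 0.00042. Without G1_107 as well Igfbp2 had r = 0.694 (permutation p = 0.00782, rho = 0.632, p = 0.0237). The relation of Igfbp2 weakened once G2_62 was also left out, to r = 0.563 (permutation p = 0.0582, rho = 0.531, p = 0.0813), while Kl had r = 0.790 (p = 0.00257, rho = 0.811, p = 0.00194). Igf2 and Igfbp2 were related to each other at r = 0.507 without G1_44 (permutation p = 0.0535, rho = 0.407, p = 0.135) and at 0.258 without both rats (permutation p = 0.373, rho = 0.270, p = 0.348). That relation therefore rested on G1_44 and G2_26. Enpp2 showed no detectable relation to Igf2 or Igfbp2 without G1_44, at r = -0.39 (permutation p = 0.149, rho = -0.28, p = 0.306) and -0.36 (permutation p = 0.189, rho = -0.24, p = 0.397), and at -0.14 and -0.21 without both rats (permutation p = 0.645 and 0.471). Of the 15 pairs over the 14 rats, 3 had a permutation p under 0.05, the third being Aqp1 and Enpp2 (r = 0.561, permutation p = 0.0364, rho = 0.446, p = 0.113). Without G1_107 and G2_152, the rats farthest from the median of Aqp1, that pair had r = 0.309 (permutation p = 0.325), so it rested on them.

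**Figure D2:**
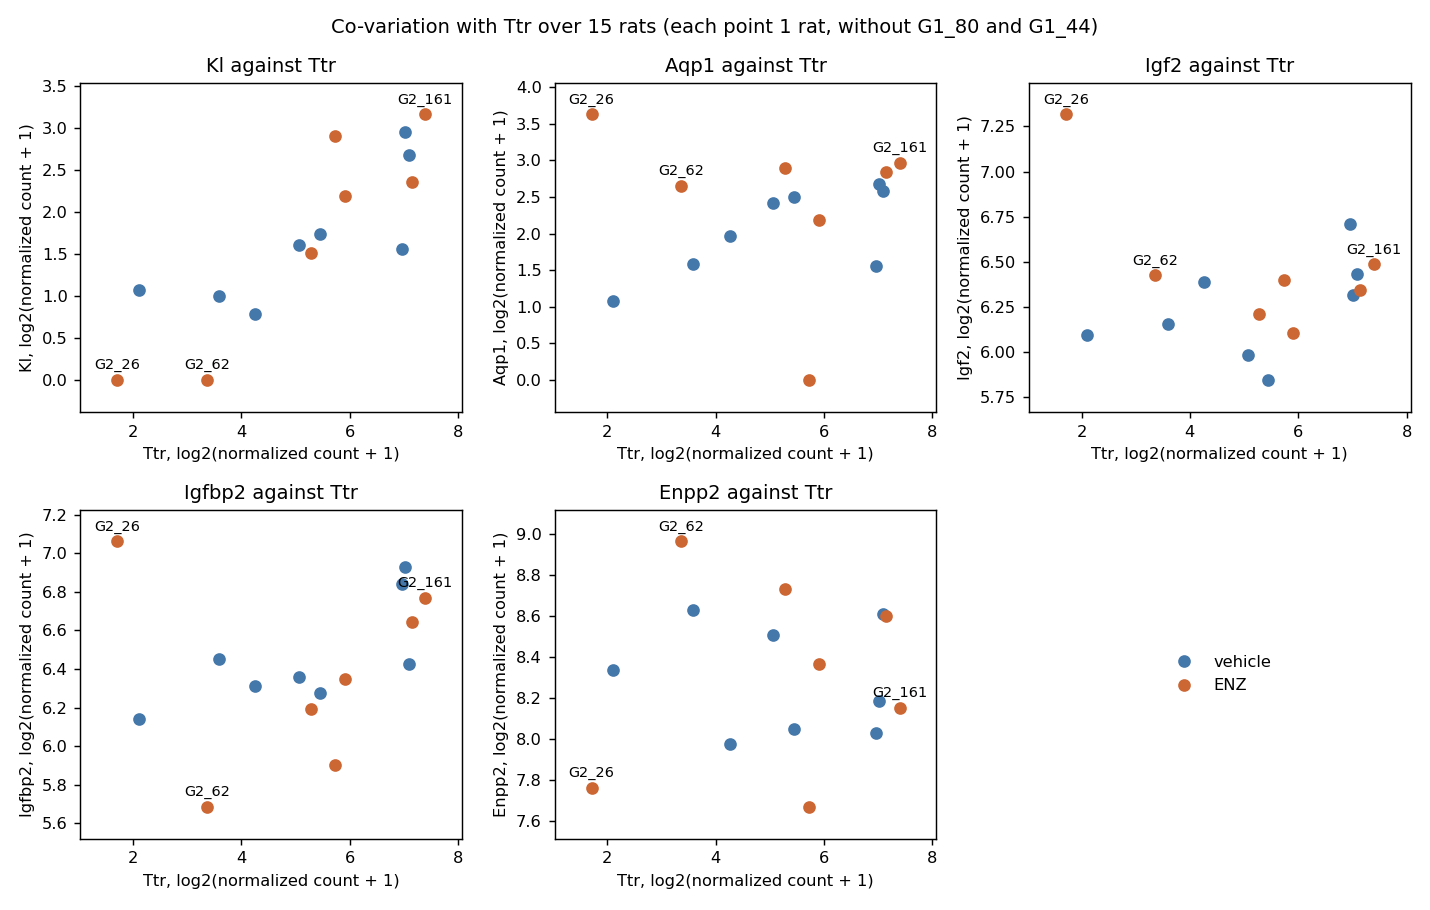
Level of 5 genes (vertical axes) against Ttr (horizontal axes) in 15 rats, both on the log2(normalized count + 1) scale, without rats G1_80 and G1_44, vehicle in blue and ENZ in orange. Kl rises with Ttr (r = 0.851), while ENZ rat G2_26 has the lowest Ttr and the highest Aqp1, Igf2 and Igfbp2.

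Over the whole table, the patterns most like Ttr over the 16 rats, among genes with a median of at least 5 normalized counts, were those of ENSRNOG00000013320 (r = 0.946) and ENSRNOG00000004834 (r = 0.937). Kl, which missed that median, would stand above both at 0.955. In the order of 13852 genes Igfbp2 ranked 72, Enpp2 105 and Igf2 138, and Aqp1 would stand at 187. Without G1_44 the first places went to ENSRNOG00000047453 (r = 0.859) and ENSRNOG00000010915 (r = 0.858), and Kl would stand at 5 of 13873. Igfbp2 then ranked 3595, Enpp2 6799 and Igf2 9551, and Aqp1 would stand at 6265. These places depended on G2_26 too: without G1_44 and G2_26, the first places went to ENSRNOG00000004834 (r = 0.903) and ENSRNOG00000003562 (r = 0.880), Kl would stand at 36 of 13840 and Aqp1 at 2467, while Igfbp2 ranked 308, Igf2 1959 and Enpp2 10368. Kl stood nearest to Ttr of the other 5 genes in each of the 3 sets of rats.

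Since Ttr and Kl varied together, their promoters are shown, with that of Aqp1 for comparison, as RefSeq gives them for assembly GRCr8, another build than the rn5 to which the reads were aligned. Each holds 250 bases before and 50 after the start of the gene, 5′ to 3′ on the strand of the gene. RefSeq promoters were found for 5 of the 6 genes, and there was none for Enpp2 in the table used. The window of Ttr is chr18:12218508-12218807 on the plus strand, that of Kl chr12:5325753-5326052 on the plus strand and that of Aqp1 chr4:85812534-85812833 on the plus strand. Capitals mark a match to a motif searched on both strands.
Ttr: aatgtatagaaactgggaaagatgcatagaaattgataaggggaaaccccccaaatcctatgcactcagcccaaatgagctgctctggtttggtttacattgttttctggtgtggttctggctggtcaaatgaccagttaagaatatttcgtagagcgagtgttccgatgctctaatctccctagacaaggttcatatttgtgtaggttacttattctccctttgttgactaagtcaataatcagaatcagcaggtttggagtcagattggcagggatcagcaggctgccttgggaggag
Kl: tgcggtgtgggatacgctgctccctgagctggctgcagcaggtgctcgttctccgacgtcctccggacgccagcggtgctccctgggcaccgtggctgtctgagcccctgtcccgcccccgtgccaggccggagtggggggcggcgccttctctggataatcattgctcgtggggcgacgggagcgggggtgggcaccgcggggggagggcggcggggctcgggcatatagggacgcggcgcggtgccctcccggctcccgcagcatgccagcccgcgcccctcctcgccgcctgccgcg
Aqp1: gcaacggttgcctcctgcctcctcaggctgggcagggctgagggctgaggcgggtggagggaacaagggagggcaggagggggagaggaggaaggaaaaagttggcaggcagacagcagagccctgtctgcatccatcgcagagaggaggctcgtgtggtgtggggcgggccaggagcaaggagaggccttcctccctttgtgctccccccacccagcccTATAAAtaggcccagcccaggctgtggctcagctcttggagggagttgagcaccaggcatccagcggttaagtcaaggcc
The motifs searched were TAATCC, the core bound by OTX homeodomain factors, TGTTTAC, a forkhead core, and TATAAA, the TATA box. The windows of Ttr and Kl held none of the 3, and neither did those of Igf2 (2 windows) and Igfbp2, which are not shown. The window of Aqp1 held TATAAA, starting at base -30 from the start of the gene. Of 33469 RefSeq promoters of this length 7.17% held TAATCC, 3.78% TGTTTAC and 14.2% TATAAA on either strand. The G and C content was 43.7% in the window of Ttr and 75.0% in that of Kl, so the 2 genes that varied together differed in the base composition of their promoters.

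ENZ was compared with vehicle to ask whether the inhibitor of protein kinase C-β altered gene expression in this region. None of the 6 genes differed between the groups beyond the spread between rats. In the 16 rats all 6 had a lower mean log2 level in ENZ, but without G1_44 the sign turned for 5 of the 6 and stayed for Igfbp2. It also turned for Igf2, Igfbp2 and Enpp2 when G1_80 was added. The median difference of the 6 genes was -0.62 on the log2 scale over the 16 rats and 0.04 without G1_44, beside -0.0043 and 0.00019 over all genes tested. With G1_80 it was -0.04, beside 0.16 over all genes, so that rat moved the genes of the table in general towards a higher level in ENZ.

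Across the whole table, limma with Benjamini-Hochberg adjustment called 0 of 13853 genes (0%) over the 16 rats at an adjusted p under 0.05, and 324 (2.34%) had an unadjusted p under 0.05. Of the 4 members with a median of at least 5 normalized counts, 0 were called and 0 had an unadjusted p under 0.05. With G1_80 added, 0 of 13844 genes (0%) were called and 38 (0.274%) had an unadjusted p under 0.05. Without G1_44, these counts were 0 of 13874 (0%) and 309 (2.23%). None of the 4 members was among them in either set. On the recovered reads of the 16 rats DESeq2 and edgeR also called 0 genes, with 309 and 338 genes (1.49% and 2.44%) at an unadjusted p under 0.05.

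The difference in Ttr between ENZ and vehicle was -1.24 on the log2 scale (SE 1.48, 95% interval -4.33 to 1.86, limma adjusted p = 0.9998, exact permutation p = 0.578). Without G1_44 it was 0.03 (SE 0.84, 95% interval -1.74 to 1.79, exact permutation p = 0.975). Without G2_26 as well it was 0.61 (exact permutation p = 0.499). Of the 7 ENZ rats, 4 lay above the median Ttr of the 9 vehicle rats. With G1_80 the difference was -0.59 (SE 1.70, exact permutation p = 0.795). Even without G1_44 the 95% interval for Ttr held differences of more than 1 doubling in either direction.

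Kl differed by -1.01 between ENZ and vehicle (exact permutation p = 0.638) and by 0.06 without G1_44 (exact permutation p = 0.915). Without G1_44 and G2_26 it was 0.35 (exact permutation p = 0.512). With G1_80 the difference in Kl was -0.74 (exact permutation p = 0.763). The sign of Kl thus turned when G1_44 was left out, as it did for Ttr, Aqp1, Igf2 and Enpp2. The difference in Aqp1 was -0.44 (exact permutation p = 0.848) over the 16 rats, 0.41 without G1_44 (exact permutation p = 0.411), 0.21 without G1_44 and G2_26 (exact permutation p = 0.678) and -0.15 with G1_80 (exact permutation p = 0.937). Kl and Aqp1 were below the median asked of genes in the limma fit, and their values depend on the amount added before taking logs. With 0.1 in place of 1 the difference over the 16 rats was -1.66 for Kl and -0.74 for Aqp1.

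For Igf2 the difference was -0.42 (SE 0.66, limma adjusted p = 0.9998, exact permutation p = 0.936) over the 16 rats. It was 0.23 without G1_44 (SE 0.16, exact permutation p = 0.221) and 0.27 with G1_80 (SE 1.04, exact permutation p = 0.574). Part of the positive value came from G2_26, since without G1_44 and G2_26 the difference in Igf2 was 0.09 (exact permutation p = 0.489). Igfbp2, its binding protein, differed by -0.62 (SE 0.54, limma adjusted p = 0.9998, exact permutation p = 0.454), by -0.10 without G1_44 (exact permutation p = 0.641), by -0.21 without G1_44 and G2_26 (exact permutation p = 0.276) and by 0.08 with G1_80 (exact permutation p = 0.898). Enpp2 differed by -0.61 (SE 0.65, limma adjusted p = 0.9998, exact permutation p = 0.697), by 0.03 without G1_44 (exact permutation p = 0.881), by 0.12 without G1_44 and G2_26 (exact permutation p = 0.539) and by 0.28 with G1_80 (exact permutation p = 0.766). Without G1_44 the 95% intervals were -0.10 to 0.56 for Igf2, -0.47 to 0.28 for Igfbp2 and -0.33 to 0.39 for Enpp2. These 3 genes were thus bounded more tightly between the groups than Ttr, whose spread between rats was several times larger.

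**Figure D3:**
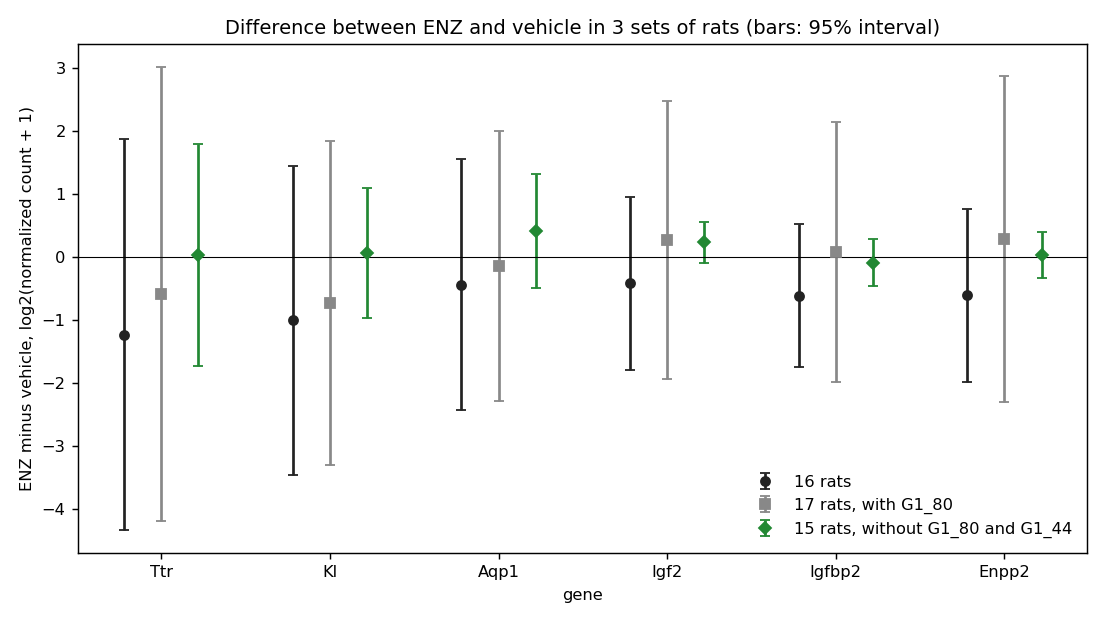
Difference between ENZ and vehicle in mean log2(normalized count + 1) for each gene, with 95% intervals by limma, in 16 rats (circles), with G1_80 (squares) and without G1_80 and G1_44 (diamonds). Kl and Aqp1 are from fits without a filter on low values, and every interval includes 0.

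The tools treated G1_44 differently. DESeq2 replaces counts that lie far from their group: for G1_44 it used 139 reads on Ttr in place of 207256, 6 on Kl in place of 5369 and 716 on Enpp2 in place of 37357, and likewise for the 3 other genes. Its log2 difference for Ttr was then 0.11 (adjusted p = 0.9998). In a further fit this replacement was switched off, and so was the filter by which DESeq2 withholds p for genes with outlying counts. The difference was then -7.31 (SE 1.70, DESeq2 adjusted p = 0.0886), and 6 of 6 members had an unadjusted p under 0.05, where 371 of 20796 genes (1.78%) did. That fit called 3 genes (0.0144%), ENSRNOG00000008902, ENSRNOG00000036826 and ENSRNOG00000039107, which are named after their values were seen; none was a member, and their reads in G1_44 were 180, 138 and 7189 against at most 2, 0 and 17 in any other of the 16 rats. By edgeR, 4 of the 4 members tested had an unadjusted p under 0.05 over the 16 rats, from 0.00357 (Ttr, log2 difference -7.35) to 0.0236 (Igfbp2), all with an adjusted p of 0.9999, and 0 of 4 without G1_44, where 282 genes (2.03%) did. The size of these differences thus rested on G1_44.

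Blood and depth were set beside these values. Hba2 differed by -0.37 between ENZ and vehicle (SE 0.19, limma adjusted p = 0.9998, exact permutation p = 0.107) and by -0.23 without G1_44 (exact permutation p = 0.172). Vehicle rat G1_8 was the lowest of the 16 rats in Hba2, at 191 normalized counts. Without G1_134, G1_44 and G1_8 the difference in Hba2 was -0.33 (exact permutation p = 0.0134). Over the 16 rats its unadjusted p was 0.0246 by DESeq2 and 0.0396 by edgeR (adjusted p = 0.9998 and 0.9999), and by limma 0.00476 without G1_8 (adjusted p = 0.9992). Without G1_44 the unadjusted p was 0.0790 by DESeq2 (log2 difference -0.25) and 0.0946 by edgeR (-0.24). With G1_80 the difference in Hba2 was -0.18 (exact permutation p = 0.576). Hba2 was thus lower in ENZ in each of these sets, past an unadjusted threshold in some of them and an adjusted one in none. Over the 16 rats r with Hba2 ran from 0.565 for Aqp1 (permutation p = 0.0632) to 0.732 for Enpp2 (permutation p = 0.0172), with p under 0.05 for 5 of the 6 genes, while rho ran from -0.15 for Aqp1 (p = 0.585) to 0.368 for Enpp2 (p = 0.162). These values of r rested on G1_44, highest in Hba2 as in the 6 genes. Over the 15 rats without G1_44, r with Hba2 ran from -0.33 for Aqp1 (permutation p = 0.236, rho = -0.39, p = 0.149) to 0.169 for Enpp2 (permutation p = 0.550, rho = 0.232, p = 0.406) among the 6 genes. Without G1_44 and G2_152, the 2 rats farthest from the median of Aqp1 over the 16, r of Aqp1 with Hba2 was -0.54 (permutation p = 0.0460, rho = -0.50, p = 0.0722). Without G1_107 as well, over 13 rats, it was -0.46 (permutation p = 0.111, rho = -0.39, p = 0.190). With log10 reads, Igf2 had an r of 0.140 over the 16 rats (permutation p = 0.692, rho = -0.31, p = 0.244). Over the 15 rats without G1_44 it had an r of -0.35 (permutation p = 0.203) and a rho of -0.46 (p = 0.0888). Over the 13 rats without G1_44, G1_18 and G2_26, r was -0.60 (permutation p = 0.0293) and rho -0.53 (p = 0.0653). Without G1_134 as well, over 12 rats, r was -0.45 (permutation p = 0.140). These 12 relations, and those within the groups, come beside the 15 pairs, with no adjustment over them.

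Each rat gave 1 library, so differences in Ttr or Enpp2 between rats include those made in dissection and library preparation, which were not measured. Poisson and Wilson intervals cover counting error only. Kl and Aqp1 had few reads outside G1_44, and a count of 0 does not show absence. Whether choroid plexus tissue was present in any sample, and from which cells the reads on Igf2, Igfbp2 and Enpp2 came, was not tested, since most cell type markers could not be matched to identifiers. Levels were not compared between genes, for lack of gene lengths, and protein was not measured.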

How the data were processed

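By the submitters' processing notes, reads were aligned to rn5 with STAR (2.4.0a), counted by featureCounts (1.4.4) and normalized by DESeq2. The authors deposited a signal, the normalized counts, which lie at or above 0. Which annotation release was counted, and with what strand setting, is not given in the sources used here. Dividing each column by its smallest step gave whole reads for 100% of values (tolerance 0.001 reads). All columns had a sample (0 without). The 2 most similar columns, G1_134 and G2_161, still differed (chi-square over degrees of freedom, 1.85).

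The main comparison of ENZ with vehicle used limma (3.58.1, in R 4.3.3) with its trend option, on log2 values after adding 1, for genes whose median normalized count reached 5. Rat G1_80 was left out for its few reads. Kl and Aqp1 missed that median, so a two-sided exact permutation test stands in for limma there; it was run on all 6 genes (Python 3.11.15, numpy 2.4.6). Recovered reads went to DESeq2 (1.42.0) and edgeR (4.0.16). In the fit called DESeq2 without replacement, its filter that withholds p for genes with outlying counts was off too. Pseudocounts (0.1, 5), filters, normalizations and sets of rats were varied. Seeing the data prompted these further alternatives: leaving G1_44 out under DESeq2, edgeR or no filter, leaving G1_44 and G2_26 out, vehicle rats without G1_44, no filter with G1_80, and DESeq2 without replacement. Members and lists were chosen with earlier results of these data known. Genes named are the 6 members, genes with an identifier printed by the study, the 2 most like Ttr in each set of rats, and the 3 called by DESeq2 without replacement. Symbols of members came with the rule that chose them. The RefSeq gene table (GRCr8) matched 0 identifiers, and of 68 listed marker symbols 5 had one, so cell type lists were not analysed here.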

Additional observations from a re-analysis of the deposited data

Results flagged for a closer look

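In 12 groups examined, the 6 genes in vehicle and in ENZ rats, there were 8 cases, from 3 rats, where a rat lay so far from the rest of its group that the gap to the nearest rat took up most of the range of log2(normalized count + 1). For normally distributed values chance gives about 1 such group in 20, or 0.6 of 12. The genes share the same rats and were chosen with earlier results of these data known, so this number cannot measure an excess over chance. Of the 8 cases, 6 were vehicle rat G1_44, at 16.55 for Ttr, 11.28 for Kl, 9.72 for Aqp1, 12.09 for Igf2, 11.17 for Igfbp2 and 14.08 for Enpp2. The next highest vehicle rats were at 7.09, 2.95, 2.68, 6.71, 6.93 and 8.63 in the same order. The 6 values come from 1 library and are not independent of each other. ENZ rat G2_26 was at 7.32 for Igf2, above the next ENZ rat, G2_161, at 6.49. ENZ rat G2_152 was at 0 for Aqp1, below the next ENZ rat, G2_116, at 2.19, and its 0 reads allow up to 4.81 normalized counts.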

How the results depend on the processing

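Without G1_44 the sign of ENZ against vehicle turned for 5 of the 6 genes and stayed for Igfbp2. Leaving out each rat in turn gave log2 differences of -1.78 to 0.0265 for Ttr, -1.25 to 0.0574 for Kl, -0.67 to 0.41 for Aqp1, -0.56 to 0.23 for Igf2, -0.73 to -0.10 for Igfbp2 and -0.73 to 0.0299 for Enpp2, all negative while G1_44 was kept. It gave 0 to 0 genes called, 287 to 458 at an unadjusted p under 0.05, and r with Ttr of 0.851 to 0.969 for Kl, 0.0517 to 0.876 for Aqp1, -0.19 to 0.895 for Igf2, 0.257 to 0.929 for Igfbp2 and 0.0134 to 0.852 for Enpp2.

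The sign turned in these fits, in the order Ttr, Kl, Aqp1, Igf2, Enpp2: DESeq2 0.11, 0.21, 0.58, 0.27, 0.0690; DESeq2 without G1_44 0.11, 0.20, 0.62, 0.28, 0.0746; no filter without G1_44 0.0265, 0.0574, 0.41, 0.23, 0.0299; 13 rats (also without G1_134, G1_44 and G1_8) 0.30, 0.0273, 0.39, 0.26, 0.0226. It also turned by edgeR without G1_44 (Ttr 0.0460, Igf2 0.29, Enpp2 0.0709) and with G1_80, filtered or not (Igf2 0.27, Igfbp2 0.0810, Enpp2 0.28).

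Genes at an unadjusted p under 0.05 were 625 without a filter, 599 without a filter and G1_44, 201 at a median of at least 50 and 38 with G1_80. DESeq2 without replacement called 3 genes. A pseudocount of 0.1 gave -1.66 for Kl and -0.74 for Aqp1.

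For r with Ttr, 13 rats gave Aqp1 0.113, Igf2 -0.30, Igfbp2 0.193 and Enpp2 0.0720. ENZ rats alone gave Aqp1 -0.28, Igf2 -0.70, Igfbp2 -0.0058 and Enpp2 0.109, and vehicle rats alone Aqp1 0.952, Igf2 0.931, Igfbp2 0.949 and Enpp2 0.897, or without G1_44 0.694, 0.487, 0.730 and -0.15. Without G1_44 and G2_26, the 2 rats farthest from the median of Ttr, they were Aqp1 0.359, Igf2 0.408 and Enpp2 -0.25.

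A median of at least 50 left no value for Ttr, Kl and Aqp1, and edgeR none for Kl and Aqp1.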
